A study of Mus musculus with 9 samples.

Results

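The BCL2 family decides whether the outer membrane of the mitochondrion stays closed or is opened during apoptosis, and 10 of its genes were followed here through the change from naïve to primed pluripotency. They were taken by gene symbol, and all 10 were found among the 54232 genes of the count file. They are the anti-apoptotic genes *Bcl2*, *Bcl2l1* (which codes for BCL-XL) and *Mcl1*, the pore-forming effector *Bak1*, and 6 BH3-only genes, namely *Bcl2l11* (BIM), *Bid*, *Bad*, *Bik*, *Bmf* and *Hrk*. All 10 passed the filter on low counts in every comparison between naïve and primed cells. At the later passage *Hrk* did so through the naïve libraries alone, as described below.

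As background, anti-apoptotic proteins hold the effectors and the BH3-only proteins in check, and BH3-only proteins carry signals of stress, such as lost adhesion or growth factor, to them. Once effectors are free they form pores, cytochrome c leaves the mitochondrion, and caspases are switched on. Pluripotent cells are known for their readiness to undergo apoptosis, and MCL1 is a protein that is made and degraded quickly, so that its amount need not follow its transcript.

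Poly(A) RNA was sequenced from naïve mESCs and from primed mEpiSCs converted from them, of a C57 x CBA background, at an early passage (P5) and a late one (P15), with 2 libraries for each of these 4 groups. Naïve cells were grown in S/L medium (serum with LIF, a cytokine that holds the naïve state) and primed cells in F/A medium (Fgf2 with activin A), both on feeder cells, which are inactivated mouse embryonic fibroblasts. A single further library came from mouse embryonic fibroblasts (MEF), a somatic control, and entered no test. The paper describes CPM values of these groups as 2 biological repeats, but does not say whether the libraries came from separate cultures. The p-values measure the spread between these libraries, part of which may be technical. Total counts ran from 14378051 to 20985136 in naïve and primed libraries and reached 25646547 in MEF, so that 3 counts, the most that a count of 0 allows, stand for 0.148 to 0.221 CPM and 0.128 CPM in MEF. This limit covers counting error only. CPM are counts relative to library size, with sizes corrected by edgeR's TMM factors. Called genes are those whose adjusted p was below 0.01.

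The labels were checked against marker genes. The summed level of 5 naïve-state markers was 1325 to 1504 CPM in naïve libraries, 144 to 147 CPM in primed P5 libraries and 49.0 to 56.1 CPM in primed P15 libraries, and that of 5 primed-state markers was 42.2 to 59.7 CPM in naïve and 657 to 688 CPM in primed libraries. *Zfp42*, a naïve-state marker, was at 17.0 and 17.6 CPM in primed P5 libraries and at 0.230 and 0.227 CPM in primed P15 libraries. All 30 fibroblast markers, chosen for the feeder cells, were detected in every library. The summed level of these markers was 9703 and 9763 CPM in naïve P5, 6105 and 5960 CPM in primed P5, 16319 and 17114 CPM in naïve P15, 14882 and 14326 CPM in primed P15, and 82824 CPM in MEF. The median marker stood at 11.2% to 23.9% of its MEF level, a measure called the feeder share below. Not all markers were below MEF: *Dcn* (465 and 457 CPM in primed P5, 720 and 749 CPM in primed P15, 211 CPM in MEF) and *Ccl2* (292 and 294, 389 and 397, and 30.5 CPM) were above it in all primed libraries, and *Lum* and *Mmp2* in the primed P15 libraries. These markers were named after their values were seen, and the origin of the transcripts was not tested. Of 9 markers of extraembryonic endoderm, the sum was 36.5 to 63.4 CPM in naïve libraries and 120 to 186 CPM in primed libraries. Of these markers, *Afp* was at 0 in all naïve and all primed P5 libraries. *Sox17* was at 29.2 and 28.3 CPM in primed P5 and at 0.295 to 0.746 CPM in naïve libraries. *Gata4*, *Sox7* and *Dab2* were also higher in primed P5 than in naïve libraries. Others of the list went the other way, such as *Cubn*, at 12.7 and 13.4 CPM in naïve P5 and at 0.944 and 0.444 CPM in primed P5 libraries. The part of these cells in the results was not tested, except by subtracting the feeder share of the MEF counts. This was done for the members between states and between passages, and for the other BCL2 family genes named below between states. Shares and orders per kilobase, and values of the further apoptosis genes, were not recomputed in this way. In bulk RNA, fewer cells of a type and less RNA per cell cannot be told apart.

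The promoters of 4 members are shown because these genes carry the 4 patterns described below: *Mcl1*, lower in primed cells at both passages; *Bcl2l11*, higher at both; *Bmf*, which turned direction; and *Hrk*, almost lost from late primed cells. Each line gives, 5′ to 3′, the 250 bases before the RefSeq start of the gene in GRCm38.p6, the mm10 assembly. Capitals mark the GC box (GGGCGG, a motif of the SP family) or the forkhead motif (GTAAACA), searched on both strands. The windows are chr3:95658471-95658720 (plus strand, *Mcl1*), chr2:128125788-128126037 (plus strand, *Bcl2l11*), chr2:118549687-118549936 (minus strand, *Bmf*) and chr5:118169514-118169763 (plus strand, *Hrk*). RefSeq lists 2 starts for *Bcl2l11* and 3 for *Bmf*, of which the one nearest the GENCODE start was taken. The RefSeq start of *Hrk* lies 5116 bases inside the gene as GENCODE M21 places it. That of *Mcl1* lies 67 bases before the GENCODE start, and the bases just after it were not found in a GENCODE transcript of the gene.
Mcl1 promoter: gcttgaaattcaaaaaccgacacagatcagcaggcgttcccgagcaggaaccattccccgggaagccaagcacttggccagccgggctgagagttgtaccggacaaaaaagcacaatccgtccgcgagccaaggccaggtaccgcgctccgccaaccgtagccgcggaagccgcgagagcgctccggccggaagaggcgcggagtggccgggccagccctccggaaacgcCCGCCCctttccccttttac
Bcl2l11 promoter: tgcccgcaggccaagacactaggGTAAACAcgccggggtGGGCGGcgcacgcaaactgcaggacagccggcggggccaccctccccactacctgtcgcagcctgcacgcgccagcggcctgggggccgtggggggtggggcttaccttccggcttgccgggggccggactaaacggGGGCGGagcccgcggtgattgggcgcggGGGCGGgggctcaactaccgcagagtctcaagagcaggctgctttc
Bmf promoter: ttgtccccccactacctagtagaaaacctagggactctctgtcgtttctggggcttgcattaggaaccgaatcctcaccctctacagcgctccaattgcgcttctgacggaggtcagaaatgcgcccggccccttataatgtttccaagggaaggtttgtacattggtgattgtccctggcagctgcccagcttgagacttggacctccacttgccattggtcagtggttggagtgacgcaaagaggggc
Hrk promoter: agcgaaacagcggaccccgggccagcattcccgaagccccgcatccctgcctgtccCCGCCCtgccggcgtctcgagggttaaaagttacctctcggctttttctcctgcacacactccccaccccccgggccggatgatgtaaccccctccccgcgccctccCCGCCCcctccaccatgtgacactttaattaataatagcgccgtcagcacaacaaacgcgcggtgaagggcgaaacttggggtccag

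A RefSeq promoter was matched for 9 of the 10 members, the exception being *Bik*. The GC box was found in 6 of these 9 windows (*Bcl2*, *Mcl1*, *Bcl2l11*, *Bid*, *Bad* and *Hrk*), against 32.7% of 32851 promoters searched for the same letters. Values over all promoters count every listed start of a gene, while each member has 1 window, so the units differ. *Mcl1* held 1 GC box and *Hrk* 2, *Bcl2l11* held 3 together with 1 forkhead motif, and *Bmf* held neither. Over all promoters 3.17% held the forkhead motif. The E-box CACGTG and the TATA box TATAAA were in 0 of the 9 windows, against 6.02% and 12.4% of all promoters. A match is a description of the letters and not of a bound site. G and C made up 64.4% of the window of *Mcl1*, 72.0% of *Bcl2l11*, 54.0% of *Bmf* and 63.2% of *Hrk*, where the median promoter had 52.4%.

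The first question was how the family differs between the states. At P5, 5 of 10 members were higher in primed cells (*Bcl2*, *Bcl2l1*, *Bcl2l11*, *Bik* and *Bmf*) and 3 were lower (*Mcl1*, *Bid* and *Hrk*), while 31.2% of the 16482 genes tested were higher and 31.1% were lower. At P15, 4 were higher (*Bcl2*, *Bcl2l1*, *Bak1* and *Bcl2l11*) and 4 were lower (*Mcl1*, *Bid*, *Bmf* and *Hrk*), against 28.2% and 28.4% of 15733 genes. With a fold change of at least 2 as well, 1 member was higher (*Bik*) and 1 lower (*Mcl1*) at P5, against 13.5% and 8.85% of genes. The count higher became 4 with library size alone, 3 after subtraction of the feeder share, 3 without primed P5 replicate 1 and 2 without naïve P5 replicate 1 or primed P5 replicate 2, and the count lower became 2 after that subtraction and without replicate 2 of either state. At that fold change 0 were higher (edgeR and DESeq2 alike, the largest rise being that of *Bcl2*) and 2 lower (*Mcl1* and *Hrk*) at P15, against 12.2% and 11% of genes. The median log2 fold change of the 10 members, primed against naïve, was 0.42 at P5 and 0.092 at P15, beside 0.0078 and -0.0039 over all genes tested. At both passages the higher and the lower members each included anti-apoptotic and pro-apoptotic genes.

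**Figure D1:**
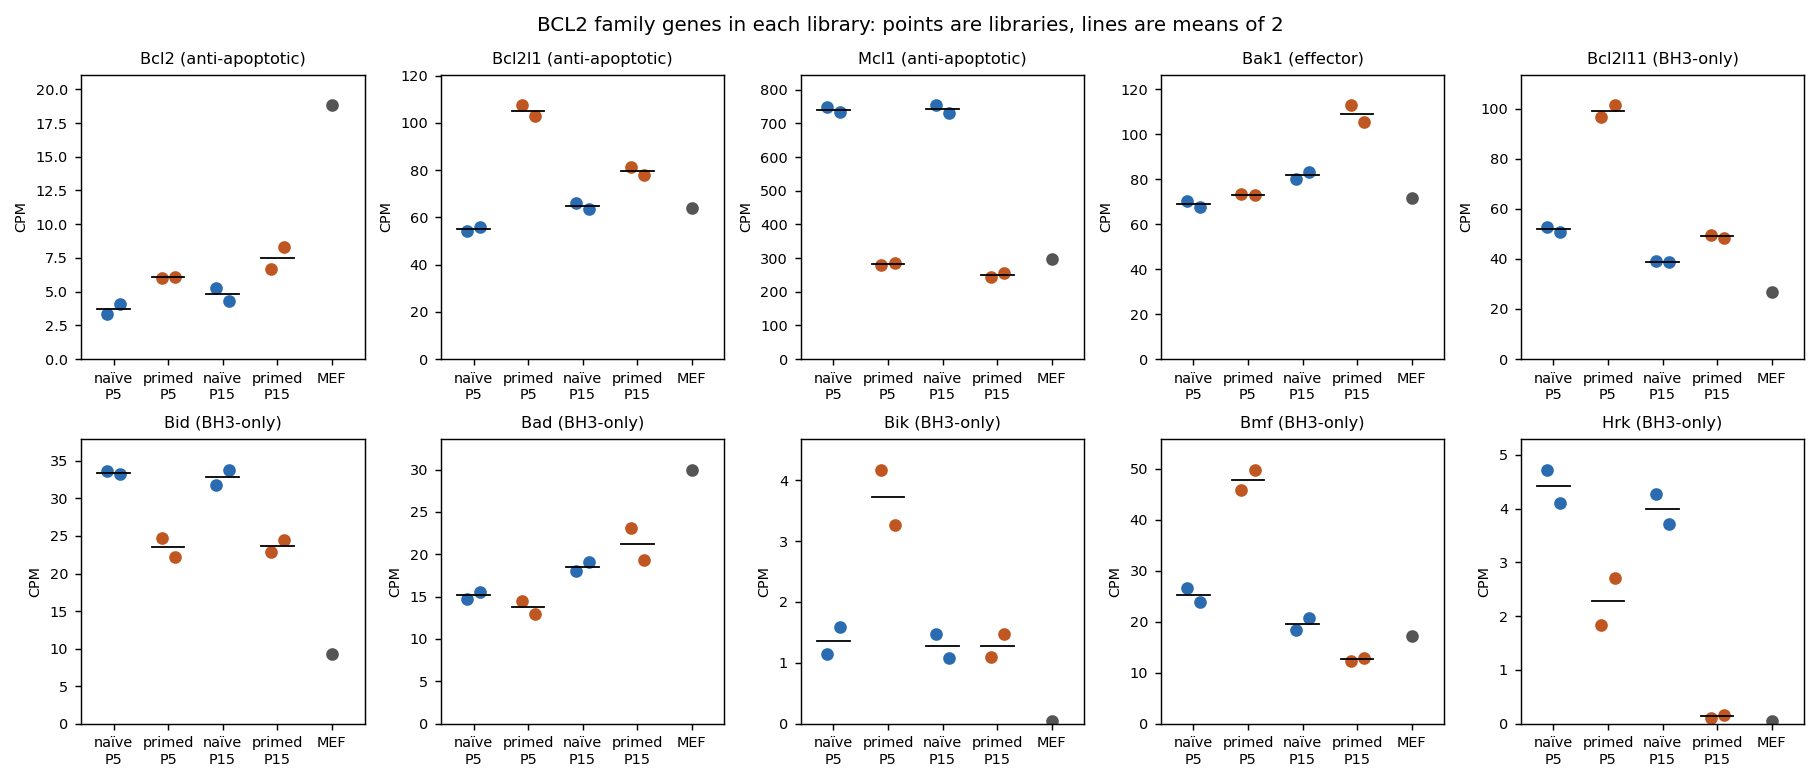
Level of each member in CPM (vertical axes, each from 0 and to its own scale) in naïve (blue), primed (orange) and MEF (grey) libraries. Points are libraries and lines are the means of 2 libraries; Mcl1 stood at 730 to 755 CPM in naïve and 243 to 286 CPM in primed libraries.

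*Mcl1* (ENSMUSG00000038612, chr3:95658788-95663176), an anti-apoptotic gene, was the member with the highest level and fell the most in absolute terms. Its libraries held 747 and 734 CPM in naïve P5, 279 and 286 CPM in primed P5, 755 and 730 CPM in naïve P15, 243 and 257 CPM in primed P15, and 296 CPM in MEF. Every naïve library lay above every primed library, and MEF lay just above the primed libraries. The log2 fold change of primed against naïve cells was -1.36 (SE 0.034, adjusted p = 2.62e-24) at P5 and -1.58 (SE 0.057, adjusted p = 6.21e-24) at P15. Mean levels in naïve cells were 741 ± 9.49 CPM at P5 and 742 ± 17.5 CPM at P15 (SD, n = 2), a log2 fold change of 0.0039 between the passages (SE 0.039, adjusted p = 0.961).

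*Bcl2l1* (ENSMUSG00000007659, chr2:152780668-152831728), which codes for BCL-XL, went the other way. It stood at 54.4 and 55.7 CPM in naïve P5, 107.5 and 102.7 CPM in primed P5, 65.8 and 63.5 CPM in naïve P15, 81.1 and 77.8 CPM in primed P15, and 63.8 CPM in MEF. The primed libraries were above the naïve ones at both passages, with a wider gap at P5. Primed against naïve cells, the log2 fold change was 0.97 (SE 0.050, adjusted p = 1.5e-16) at P5 and 0.29 (SE 0.071, adjusted p = 0.000556) at P15. The call at P15 was lost without naïve P15 replicate 2 (0.23, adjusted p = 0.0213).

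*Bcl2* (ENSMUSG00000057329, chr1:106538178-106714274), the gene that gave the family its name, was low in pluripotent cells. It stood at 3.33 and 4.11 CPM in naïve P5, 6.01 and 6.10 CPM in primed P5, 5.30 and 4.28 CPM in naïve P15, 6.71 and 8.29 CPM in primed P15, and 18.8 CPM in MEF. Primed libraries were above naïve ones at each passage and all were below MEF. The log2 fold change was 0.73 (SE 0.190, adjusted p = 0.00112) at P5 and 0.64 (SE 0.201, adjusted p = 0.00548) at P15. After subtraction of the feeder share these became 3.02 (adjusted p = 0.000252) and 1.38 (adjusted p = 0.0253). The mean in naïve P5 was 0.197 of the MEF level, close to the feeder share of its libraries (17.2% and 17.6%). Little naïve P5 signal was therefore left after subtraction, and the size of 3.02 depends on that small remainder. DESeq2 (adjusted p = 0.0213 and 0.0568) ended both calls, as did leaving out naïve replicate 1, primed replicate 1 or primed replicate 2 at P5 (0.56, 0.77 and 0.75, adjusted p = 0.0255, 0.0108 and 0.0105) and naïve replicate 2 or primed replicate 2 at P15 (0.46 and 0.51, adjusted p = 0.0837 and 0.0996).

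The make-up of the anti-apoptotic transcripts was compared per kilobase of merged exons, which puts genes of different length on 1 scale. *Mcl1* made up 93.7% to 94.7% of the sum of *Mcl1*, *Bcl2l1* and *Bcl2* in the 4 naïve libraries, 77.2% to 80.8% in the 4 primed libraries and 84.5% in MEF. *Bcl2l1* made up 5.13% to 6.09% in naïve, 18.2% to 22.2% in primed libraries and 13.5% in MEF. The naïve and primed libraries did not overlap in either share. The ratio of *Mcl1* to *Bcl2l1* was 15.4 to 18.5 in naïve libraries, 3.48 to 4.43 in primed libraries and 6.23 in MEF. With the longest transcript as the length of a gene, the ratio was 8.61 to 10.3 in naïve and 1.95 to 2.48 in primed libraries, so that its size depends on the length used while the gap between the states remained.

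**Figure D2:**
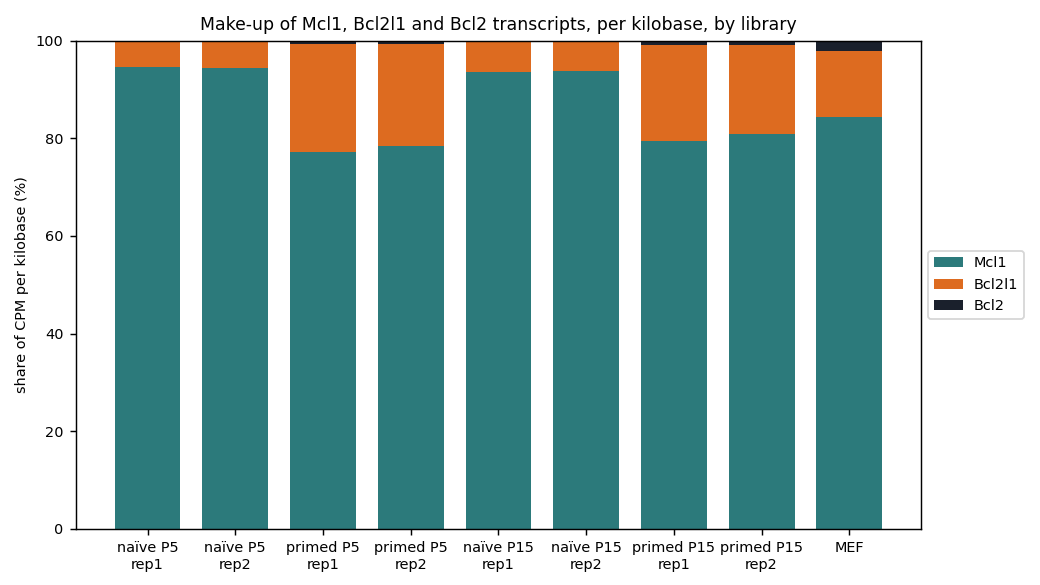
Share of Mcl1 (teal), Bcl2l1 (orange) and Bcl2 (black) in their summed CPM per kilobase of merged exons (vertical axis, %), 1 bar per library. Bcl2l1 takes 18.2% to 22.2% of each primed bar and 5.13% to 6.09% of each naïve bar.

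*Bak1* (ENSMUSG00000057789, chr17:27019810-27029009), a pore-forming effector, differed little between the states at P5 and was higher in primed cells at P15. It stood at 70.3 and 67.5 CPM in naïve P5, 73.1 and 72.8 CPM in primed P5, 80.2 and 83.2 CPM in naïve P15, 112.9 and 105.2 CPM in primed P15, and 71.4 CPM in MEF. The late primed libraries were the highest of all. The states differed by a log2 fold change of 0.11 (SE 0.051, adjusted p = 0.0473) at P5, which did not pass the threshold, and 0.41 (SE 0.067, adjusted p = 2.34e-06) at P15. With library size alone as the scaling, which moved the median of all genes at P5 to 0.21, *Bak1* was at 0.32 and passed (adjusted p = 6.55e-06). A stretch of 18.2% of its exon bases is shared with *Ggnbp1* on the opposite strand, a gene at 1.47 to 3.07 CPM in all 9 libraries, and the kit in the labels does not mark strand.

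Among the BH3-only genes, primed cells had 3 of 6 higher and 2 lower at P5 (median log2 fold change 0.42), and 1 higher and 3 lower at P15 (median -0.24). Over all genes tested, 31.2% were higher and 31.1% lower at P5, and 28.2% and 28.4% at P15. *Bcl2l11* (ENSMUSG00000027381, chr2:128126038-128162547) codes for BIM, which can bind all the anti-apoptotic proteins. It stood at 52.9 and 50.9 CPM in naïve P5, 96.6 and 101.5 CPM in primed P5, 39.1 and 38.7 CPM in naïve P15, 49.8 and 48.3 CPM in primed P15, and 26.8 CPM in MEF. The early primed libraries were the highest, and the late primed ones were no higher than the early naïve ones. The log2 fold change of primed against naïve cells was 0.96 (SE 0.052, adjusted p = 3.26e-16) at P5 and 0.32 (SE 0.082, adjusted p = 0.000783) at P15. The P15 call was lost with DESeq2 (adjusted p = 0.0117) and without naïve P15 replicate 2 (0.29, adjusted p = 0.0154).

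*Bmf* (ENSMUSG00000040093, chr2:118528757-118549687), known for its role in cell death upon loss of adhesion, changed direction between the passages. It stood at 26.7 and 23.9 CPM in naïve P5, 45.9 and 49.8 CPM in primed P5, 18.4 and 20.8 CPM in naïve P15, 12.2 and 13.0 CPM in primed P15, and 17.2 CPM in MEF. Primed libraries were above the naïve ones at P5 and below them at P15, with no overlap at either passage. Primed against naïve cells it had a log2 fold change of 0.95 (SE 0.074, adjusted p = 1.7e-12) at P5 and -0.65 (SE 0.126, adjusted p = 2.48e-05) at P15. Over all alternatives it ran from 0.85 to 1.15 at P5 and from -0.85 to -0.55 at P15.

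*Hrk* (ENSMUSG00000046607, chr5:118164648-118189478), a BH3-only gene best known from neurons, was low and nearly absent from late primed cells. It stood at 4.72 and 4.11 CPM in naïve P5, 1.84 and 2.72 CPM in primed P5, 4.27 and 3.71 CPM in naïve P15 and 0.115 and 0.170 CPM in primed P15. The late primed values rest on 2 and 3 counts, against 58 counts in each late naïve library, and MEF held 1 count. *Hrk* therefore entered the P15 test only through the naïve libraries, the group where it was high. A log2 fold change of -0.93 (SE 0.238, adjusted p = 0.000962) at P5 was followed by -4.74 (SE 0.483, adjusted p = 8.4e-11) at P15, where the fitted value depends on the few counts. From the summed counts the naïve P15 level was 27.8 times that of primed P15 (95% interval 11.6 to 87.3, exact binomial, counting error only). The P5 call was lost with DESeq2 (adjusted p = 0.0184) and without primed P5 replicate 1 (-0.64, adjusted p = 0.0537), and at P15 *Hrk* failed the count filter, and had no test, without either naïve library.

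*Bik* (ENSMUSG00000016758, chr15:83526862-83544634), whose product sits mostly at the endoplasmic reticulum, peaked in early primed cells. It stood at 1.14 and 1.58 CPM in naïve P5, 4.17 and 3.27 CPM in primed P5, 1.47 and 1.09 CPM in naïve P15, 1.09 and 1.48 CPM in primed P15, with 1 count in MEF. Only the 2 early primed libraries stood apart from the other pluripotent libraries, and naïve and primed libraries overlapped at P15. The state comparison gave a log2 fold change of 1.48 (SE 0.278, adjusted p = 2.69e-05) at P5 and 0.0039 (SE 0.410, adjusted p = 0.994) at P15. These values rest on 17 to 84 counts per library, and the SE at P15 leaves room for sizeable differences in both directions.

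*Bid* (ENSMUSG00000004446, chr6:120891930-120916853), which links death receptors to the mitochondrion once it is cut by caspase-8, was lower in primed cells to a like extent at both passages. Its range was 33.2 to 33.6 CPM in naïve P5, 22.2 to 24.7 CPM in primed P5, 31.8 to 33.8 CPM in naïve P15 and 22.9 to 24.4 CPM in primed P15, with 9.27 CPM in MEF. Its log2 fold change was -0.47 (SE 0.080, adjusted p = 5.45e-06) at P5 and -0.48 (SE 0.098, adjusted p = 5.02e-05) at P15, with naïve libraries above primed ones throughout. A stretch of 17.7% of its exon bases is shared with *Bcl2l13* on the opposite strand, itself at 67.5 to 81.4 CPM in pluripotent libraries, and reads of these 2 genes cannot be told apart there.

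*Bad* (ENSMUSG00000024959, chr19:6941861-6951899), which growth factor signalling holds inactive by phosphorylation, did not pass the threshold between the states. It ranged from 14.8 to 15.5 CPM in naïve P5, 12.9 to 14.5 CPM in primed P5, 18.0 to 19.1 CPM in naïve P15 and 19.3 to 23.1 CPM in primed P15, with 29.98 CPM in MEF. The state comparison gave a log2 fold change of -0.11 (SE 0.110, adjusted p = 0.382) at P5 and 0.18 (SE 0.117, adjusted p = 0.177) at P15. At P5 its sign turned to 0.094 with library size alone. Of its exon bases 20.5% are shared with *Gpr137* on the opposite strand, which was at 11.7 to 24.4 CPM.

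**Figure D3:**
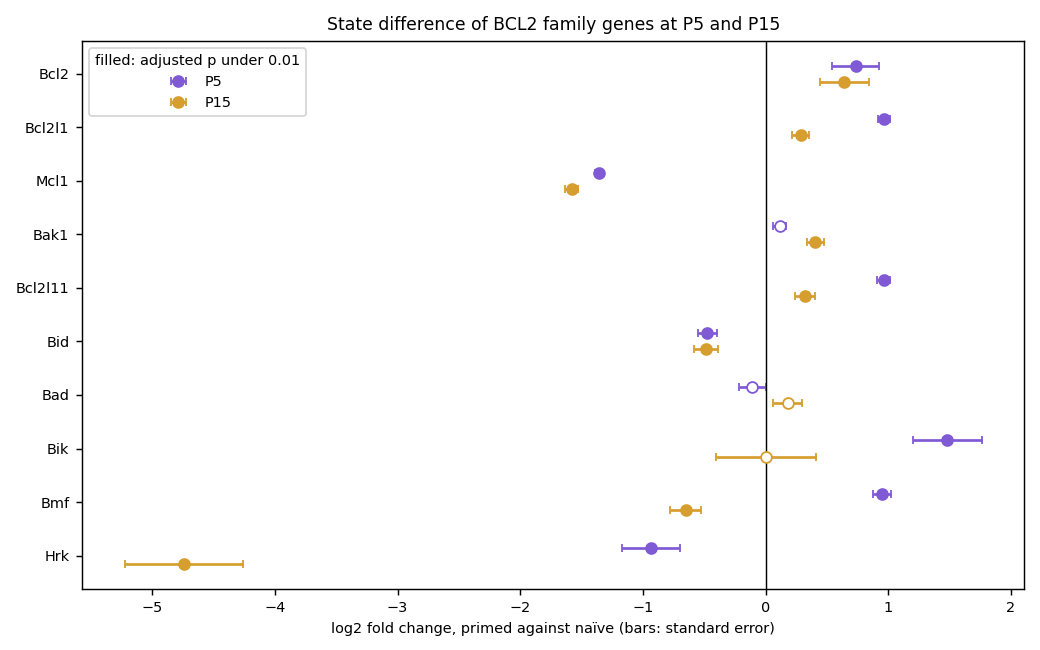
Log2 fold change of primed against naïve cells (horizontal axis) for each member at P5 (purple) and P15 (yellow), with bars of 1 standard error and filled points for an adjusted p under 0.01. Bmf lies at 0.95 at P5 and -0.65 at P15, and Hrk moves from -0.93 to -4.74.

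The next question was how the passages differed within each state. Passage cannot be told apart here from other differences between the harvests at P5 and at P15. In naïve cells 1 member was higher at P15 than at P5 (*Bak1*, log2 fold change 0.25, SE 0.055, adjusted p = 0.00793) and 1 was lower (*Bcl2l11*, -0.42, SE 0.066, adjusted p = 0.000854), while 4.21% and 5.01% of 15683 genes were higher and lower. The other 8 members did not pass, with values from -0.36 (*Bmf*, adjusted p = 0.0243) to 0.36 (*Bcl2*, adjusted p = 0.292), although *Bmf* passed without naïve P5 replicate 2 (-0.44, adjusted p = 0.00947) and both *Bcl2l1* (0.23, adjusted p = 0.00906) and *Bmf* (-0.37, adjusted p = 0.00641) passed with 8 libraries in the fit. The call of *Bak1* did not hold with library size alone (adjusted p = 0.0121), with no filter (adjusted p = 0.0454), with DESeq2 (adjusted p = 0.0336), after subtraction of the feeder share (adjusted p = 0.0147), or without naïve P5 replicate 1, naïve P5 replicate 2 or naïve P15 replicate 2 (adjusted p = 0.018, 0.0843 and 0.0242).

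In primed cells 8 of 10 members passed the test between the passages. Higher at P15 were *Bak1* (log2 fold change 0.55, SE 0.059, adjusted p = 1.07e-08) and *Bad* (0.59, SE 0.112, adjusted p = 5.51e-05), against 24.3% of 15957 genes. Lower at P15 were 6 members, against 22.8% of genes. The anti-apoptotic *Bcl2l1* fell by 0.44 (adjusted p = 4.07e-07) and *Mcl1* fell by 0.21 (adjusted p = 0.000667), and the call of *Mcl1* was lost without primed P5 replicate 2 (adjusted p = 0.0121). Of the 6 BH3-only genes, 4 fell: *Bcl2l11* fell by 1.04 on the log2 scale (adjusted p = 7.91e-14), *Bik* fell by 1.57 (adjusted p = 3.65e-05), *Bmf* fell by 1.96 (adjusted p = 3.54e-16) and *Hrk* fell by 3.96 (adjusted p = 3.08e-07). For *Hrk* the summed counts gave a ratio of early to late primed cells of 15.8 (95% interval 6.51 to 49.9, exact binomial). *Hrk* entered the test between the primed passages only through the primed P5 libraries (37 and 49 counts, against 2 and 3 at P15). *Bcl2* (0.28, adjusted p = 0.149) and *Bid* (-0.022, adjusted p = 0.856) did not pass. The median over the 10 members was -0.32, beside -0.0012 over all genes. Between the same libraries the summed naïve-state markers went from 144 to 147 CPM at P5 to 49.0 to 56.1 CPM at P15, and the fibroblast markers from 5960 to 6105 CPM to 14326 to 14882 CPM. After subtraction of the feeder share, 2 members were again higher and 6 lower; the part of the naïve-state markers was not tested.

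Whether the state difference itself moved with passage was tested in a fit of the 8 pluripotent libraries. It differed for 6 of 10 members, against 24.1% of 16926 genes. The difference of the state effect, P15 minus P5 on the log2 scale, was negative for *Bcl2l1* (-0.66, SE 0.084, adjusted p = 1.99e-07), *Mcl1* (-0.21, SE 0.060, adjusted p = 0.00759), *Bcl2l11* (-0.62, SE 0.092, adjusted p = 2.7e-06), *Bmf* (-1.59, SE 0.139, adjusted p = 9.91e-11) and *Hrk* (-3.80, SE 0.568, adjusted p = 3.14e-06), and positive for *Bak1* (0.31, SE 0.083, adjusted p = 0.00418). For *Bik* it was -1.46 (SE 0.489, adjusted p = 0.02), which did not pass the threshold. The calls of *Mcl1* and *Bak1* leaned on single libraries. That of *Mcl1* was lost without either naïve P5 library, either primed P5 library, naïve P15 replicate 1 or primed P15 replicate 1 (-0.25 to -0.16, adjusted p from 0.014 to 0.0625), and that of *Bak1* without naïve P5 replicate 1, either primed P5 library, naïve P15 replicate 1 or primed P15 replicate 1 (0.26 to 0.28, adjusted p from 0.0166 to 0.0334). *Bcl2*, *Bid* and *Bad* did not pass, with values of -0.075, 0.0070 and 0.30. These comparisons share libraries with those of state and of passage and are not independent of them.

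Levels of different genes were then ordered by CPM per kilobase of merged exons. *Mcl1*, *Bak1* and *Bcl2l1* led the order, as named, in all 5 groups, at 217, 28.6 and 12.0 CPM per kilobase in naïve P5 and at 73.1, 45.3 and 17.3 CPM per kilobase in primed P15. In naïve P5 cells *Bid* (9.41), *Bcl2l11* (6.47), *Bad* (5.92) and *Bmf* (4.82 CPM per kilobase) followed, and *Bik* (0.857), *Hrk* (0.778) and *Bcl2* (0.406 CPM per kilobase) closed the order, with the libraries of *Bik* and *Hrk* overlapping. In primed P5 cells *Bcl2l11* (12.3) and *Bmf* (9.11 CPM per kilobase) stood above *Bid* (6.61 CPM per kilobase). In primed P15 cells *Bad* (8.28) stood above *Bid* (6.67), *Bcl2l11* (6.11) and *Bmf* (2.40 CPM per kilobase), the libraries of *Bcl2* (0.819) and *Bik* (0.807 CPM per kilobase) overlapped, and *Hrk* was last at 0.0251 CPM per kilobase. In naïve P15 cells the libraries of *Bik* and *Hrk* overlapped again, and all other neighbours in the 4 pluripotent groups were apart. With the longest transcript as the length, *Bcl2l1* (40.9) came before *Bak1* (30.6 CPM per kilobase) in primed P5, and *Bid* before *Bmf* in MEF, with no other change of place.

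The single MEF library gives the somatic level without a test. *Bcl2* and *Bad* were higher in it than in all 8 pluripotent libraries, at 18.8 and 29.98 CPM. *Bcl2l11* and *Bid* were lower in it than in all 8, at 26.8 and 9.27 CPM, and *Bik* and *Hrk* had 1 count each, under the limit of 3 counts. *Mcl1* and *Bcl2l1* lay between 243 and 755 CPM and between 54.4 and 107.5 CPM in pluripotent libraries, ranges that hold the MEF values of 296 and 63.8 CPM.

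Of the other BCL2 family, a list of 13 genes, 8 had enough counts for a test. Primed cells had 2 of them higher and 4 lower at P5, and 1 higher and 2 lower at P15, where 31.2% and 31.1% of all genes were called at P5 and 28.2% and 28.4% at P15. The median log2 fold change was -0.14 at P5 and -0.19 at P15. The effector *Bax* was at 146 and 158 CPM in naïve P5 and 92.9 and 86.1 CPM in primed P5. It was at 142 and 149 CPM in naïve P15, 139.8 and 114.6 CPM in primed P15, and 111 CPM in MEF. The early primed libraries were the lowest. Its log2 fold change was -0.73 (SE 0.048, adjusted p = 3.04e-14) at P5 and -0.21 (SE 0.071, adjusted p = 0.0112) at P15, and it passed at P15 with DESeq2's size factors (adjusted p = 0.00736), no filter (adjusted p = 0.00749), 8 libraries in the fit (adjusted p = 0.00756), and without naïve P15 replicate 1 (-0.26, adjusted p = 0.00348) or primed P15 replicate 1 (-0.33, adjusted p = 0.000115). Its state effect differed between the passages by 0.54 (SE 0.093, adjusted p = 2.58e-05).

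The BH3-only gene *Bbc3* (PUMA), a target of p53, was lower in primed cells at both passages, with 85.5 and 80.9 CPM in naïve P5, 44.7 and 42.0 CPM in primed P5, 56.9 and 63.4 CPM in naïve P15, 32.6 and 28.5 CPM in primed P15 and 39.6 CPM in MEF. Its log2 fold change was -0.91 (adjusted p = 1.02e-14) at P5 and -0.99 (adjusted p = 1.74e-12) at P15. *Pmaip1* (NOXA), which binds MCL1, was at -0.22 (adjusted p = 4.64e-05) at P5 and at -0.17 (adjusted p = 0.0397) at P15, and it lost its call at P5 with library size alone (-0.015, adjusted p = 0.763) and passed at P15 without naïve or primed P15 replicate 2 (-0.25 each, adjusted p = 0.00605 and 0.00533). Of the atypical genes, *Bcl2l12* was higher at both passages (0.77, adjusted p = 1.45e-06, and 0.66, adjusted p = 0.000271), but not at P15 without naïve P15 replicate 2 (0.53, adjusted p = 0.0104). *Bcl2l14* was lower at both (-1.01, adjusted p = 0.00381, and -2.72, adjusted p = 4.36e-06). It had 5 and 7 counts in primed P15 libraries and entered the P15 test only through the naïve P15 libraries (29 and 38 counts), where it was high. Its P5 call was lost with library size alone (-0.81, adjusted p = 0.0192), with no filter (adjusted p = 0.0121), with DESeq2 (adjusted p = 0.044) and after subtraction of the feeder share (adjusted p = 0.0105). The P5 call was also lost without naïve P5 replicate 2, primed P5 replicate 1 or primed P5 replicate 2. *Bok*, a further effector, was at 0.28 (adjusted p = 0.00696) at P5 and -0.24 (adjusted p = 0.0435) at P15, and the P5 call was lost with no filter (adjusted p = 0.0429), with 8 libraries in the fit (adjusted p = 0.0133), with DESeq2 (adjusted p = 0.0739), after subtraction of the feeder share (adjusted p = 0.0143) and without naïve P5 replicate 2 (0.17, adjusted p = 0.126) or primed P5 replicate 1 (0.23, adjusted p = 0.0859). *Bcl2l2* (-0.066 and -0.060) and *Bcl2l13* (0.070 and 0.11) did not pass. *Bcl2a1a*, *Bcl2a1b*, *Bcl2a1d*, *Bcl2l10* and *Bcl2l15* had 0 to 6 counts in any pluripotent library and were not tested. *Bcl2l12* shares 28.9% of its exon bases with *Gm15545* and 4.45% with *Irf3*, both on the opposite strand. *Bcl2l14* shares 14.1% and *Bcl2l13* 6.91% with genes on the opposite strand, and *Bcl2l2* 13.3% and *Bax* 12.2% with genes on the same strand. The part of these overlaps in the values was not tested.

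The rest of the pathway was followed by 34 genes upstream and downstream of the family, of which 33 could be tested (all but *Fasl*, the ligand of *Fas*). In primed cells 13 of these rose and 11 fell at P5, and 12 rose and 8 fell at P15, with medians of 0.12 and 0.051. The same shares of all genes apply to these counts and to those of the lists within them. They were 31.2% higher and 31.1% lower at P5, and 28.2% and 28.4% at P15. The counts lower, 11 and 8 of 33, lie near these shares. The counts higher, 13 and 12 of 33, lie somewhat above them, and no excess was tested. Of the 10 genes of the apoptosome and caspases, 5 were higher and 1 lower at P5, and 5 were higher and 2 lower at P15. *Casp8*, the initiator caspase of death receptors that cuts *Bid*, was at 7.96 and 7.67 CPM in naïve P5, 18.3 and 17.9 CPM in primed P5, 9.35 and 11.5 CPM in naïve P15, 28.9 and 28.9 CPM in primed P15 and 37.3 CPM in MEF. Its log2 fold change was 1.25 (adjusted p = 1.07e-10) at P5 and 1.45 (adjusted p = 5.74e-13) at P15. Of 7 tested death receptor genes, 4 passed at P5 and 3 at P15, and each of these was higher in primed cells. *Fas*, a death receptor, was at 5.62 and 5.84 CPM in naïve P5, 13.7 and 13.0 CPM in primed P5, 7.44 and 7.23 CPM in naïve P15, 16.5 and 16.8 CPM in primed P15 and 9.19 CPM in MEF. *Fas* had a log2 fold change of 1.25 (adjusted p = 2.35e-09) at P5 and 1.17 (adjusted p = 7.6e-09) at P15.

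Of the 5 inhibitor of apoptosis genes, 3 were higher and 2 lower at P5, against 31.2% and 31.1% of all genes, and 2 were higher and 2 lower at P15, against 28.2% and 28.4%. *Birc3* (cIAP2), which restrains death receptor signals, was at 6.56 and 6.14 CPM in naïve P5, 16.2 and 15.1 CPM in primed P5, 5.52 and 7.10 CPM in naïve P15, 21.2 and 25.3 CPM in primed P15 and 14.5 CPM in MEF. Its log2 fold change was 1.34 (adjusted p = 1.73e-10) at P5 and 1.86 (adjusted p = 9.81e-14) at P15. All 3 outer membrane channels (*Vdac1*, *Vdac2* and *Vdac3*) were lower at P5, and 1 of them (*Vdac1*) at P15. Of the 4 mitochondrial proteins released in apoptosis, 2 (*Endog* and *Aifm1*) passed as lower at P5, and 1 (*Htra2*) passed as higher at P15. Of 4 genes that act on the turnover of MCL1 protein, 3 were lower and 1 higher at both passages. *Huwe1*, a ubiquitin ligase of MCL1, was at -0.51 and -0.47, *Fbxw7*, part of another such ligase, at -0.41 and -0.34, and *Usp9x*, an enzyme that takes ubiquitin off MCL1, at -0.69 and -0.92, while *Fbxo4* was at 0.75 and 0.81 (log2 fold changes at P5 and P15). The genes of these last 3 lists were named after their values were seen.

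**Figure D4:**
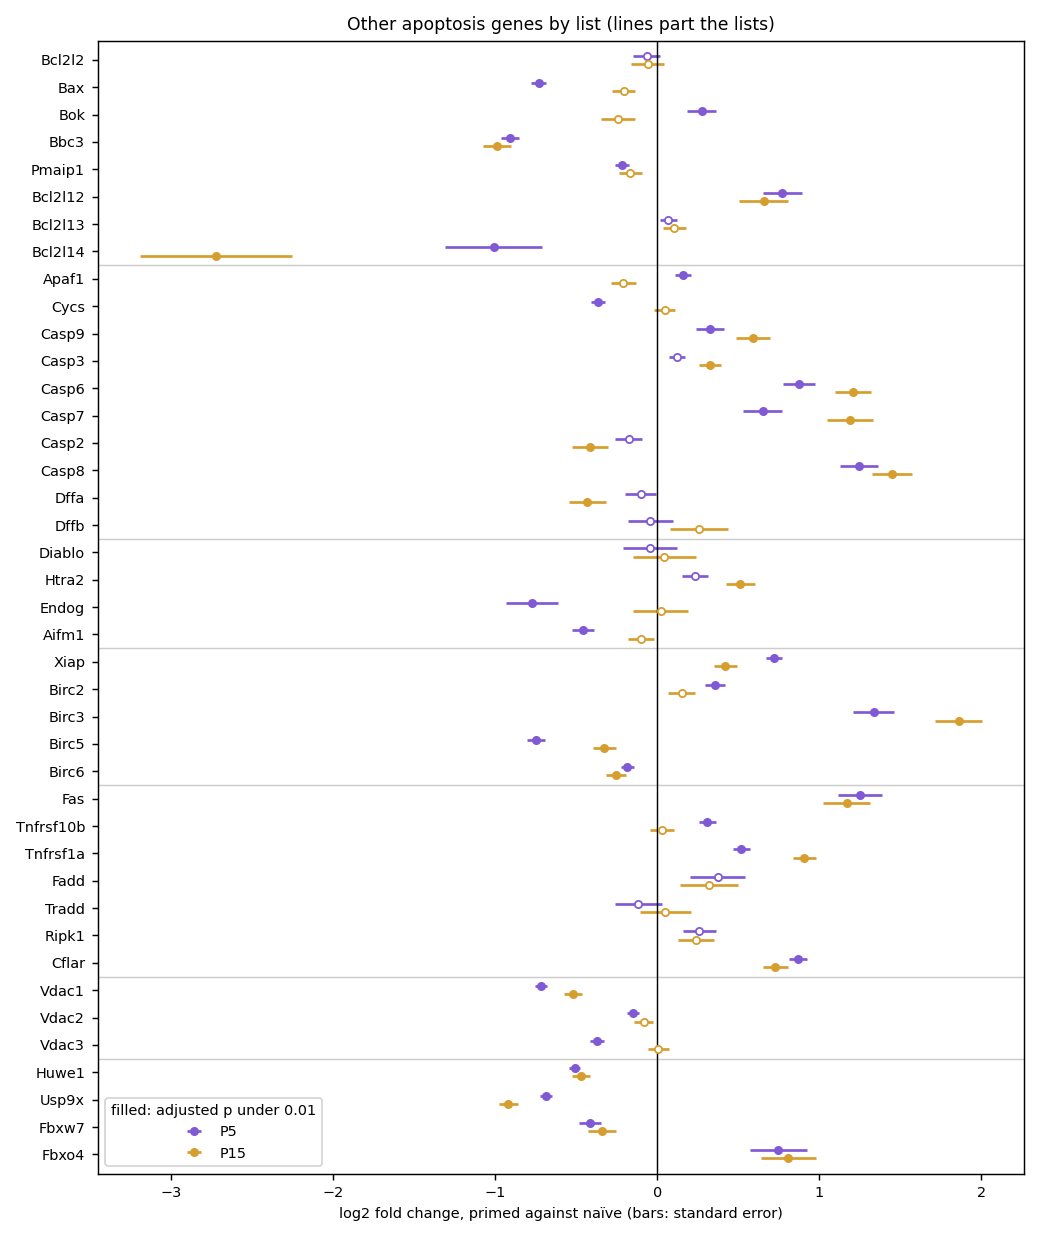
Log2 fold change of primed against naïve cells (horizontal axis) for 8 other BCL2 family genes and 33 further apoptosis genes at P5 (purple) and P15 (yellow), with bars of 1 standard error, filled points for an adjusted p under 0.01 and grey lines between lists. Casp8, Birc3 and Fas lie above 1 at both passages, and Bcl2l14 lies at -1.01 and -2.72.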

How the data were processed

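RNA-seq of 9 libraries was used. The deposited values are raw counts per gene; the authors trimmed reads with Cutadapt, aligned them with HISAT2 to mm10 and used featureCounts on Ensembl genes. The annotation release, strand setting and treatment of reads with several alignments are not given in the sources used here. No use was made of 92 spike-in entries, all at 0. Gene positions, exon lengths and overlaps came from GENCODE M21, and promoters from RefSeq (GRCm38.p6).

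The members and all lists were chosen with earlier results of these data known. Computations used R 4.3.3, edgeR 4.0.16, limma 3.58.1 and DESeq2 1.42.0. Groups were compared with the quasi-likelihood test of edgeR under TMM scaling, on genes with 10 counts or more in 2 or more fitted libraries. P-values were adjusted after Benjamini and Hochberg over all genes tested. Each state or passage comparison was fitted on its own 4 libraries, where the biological coefficient of variation was 3.26% to 4.79%. Replicates differed by more than counting noise (chi-square per gene 2.10 to 3.28). The code was tested on simulated data. Named besides the members are the other BCL2 family genes and, from each further list, up to 2 genes in each direction with the smallest adjusted p among those past the threshold and a fold change of 2 at both passages. Alternatives were scaling by library size alone or by DESeq2's size factors, no count filter, 8 libraries in 1 fit, a replicate block, DESeq2's Wald test, the feeder share of the MEF counts taken off (the share being the median over 30 fibroblast markers of their CPM relative to MEF), the longest transcript as gene length, and each replicate left out.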

Additional observations from a re-analysis of the deposited data

Results flagged for a closer look

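The size of the difference between primed and naïve cells changed between P5 and P15 for 6 members, by a test of that change (edgeR's quasi-likelihood test over 8 libraries). The effect at P15 minus that at P5 was -3.80 on the log2 scale for *Hrk*, -1.59 for *Bmf*, -0.66 for *Bcl2l1*, -0.62 for *Bcl2l11*, -0.21 for *Mcl1* and 0.31 for *Bak1*. For *Bmf* the state difference turned from higher to lower, for *Bcl2l1* and *Bcl2l11* it shrank, for *Hrk*, *Mcl1* and *Bak1* it grew. The calls of *Mcl1* (adjusted p from 7.75e-05 to 0.0625 over the alternatives) and *Bak1* (0.00148 to 0.0734) were the least firm. That of *Hrk* rests on 2 and 3 counts in the late primed libraries. Those of *Bcl2l1*, *Bcl2l11*, *Bmf* and *Hrk* passed in every alternative run that gave them a value, with adjusted p of at most 0.00123.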

How the results depend on the processing

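At P5, 76 of 80 member values under alternatives other than a left-out replicate kept their direction and their side of the threshold, and at P15 73 of 80 did. With 1 replicate left out, 36 of 40 did at P5 and 32 of 38 at P15, where the lone library of a group is assumed to vary like the others. Library size alone moved the median log2 fold change of all genes to 0.21 at P5, 0.10 at P15 and -0.13 between the passages in primed cells.

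The following counts moved by more than 1.5 times. At P5 the members higher by at least 2-fold went from 1 to 4 with library size alone and to 3 with the feeder share taken off, with 1 to 3 over left-out replicates (3 without primed P5 replicate 1), and those lower went from 1 to 2 with the feeder share taken off, with 1 to 2 over left-out replicates (2 without naïve P5 replicate 2 or primed P5 replicate 2). At P15 the members higher went from 4 to 2 with DESeq2's Wald test and to 1 to 4 over left-out replicates (1 without naïve P15 replicate 2), and those lower by at least 2-fold to 1 to 2 (1 without either naïve P15 replicate, since *Hrk* then has too few libraries for the filter). Between the passages in naïve cells, the 1 member higher became 0 with library size alone, no filter, DESeq2's Wald test or the feeder share taken off and 2 with 8 libraries in the fit, and 0 to 1 over left-out replicates, and the 1 lower became 2 with 8 libraries and 1 to 2 over left-out replicates (2 without naïve P5 replicate 2). For the change of the state effect, the 1 member higher (*Bak1*) became 0 with library size alone or DESeq2's Wald test and 0 to 1 over left-out replicates. Except for *Hrk*, the cause was not tested.

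Signs turned for values that did not pass in the main analysis. At P5 *Bad* was at 0.094 with library size alone, and *Bcl2l2* at 0.14 with library size alone and 0.091 with the feeder share taken off (-0.11 to 0.00087 over left-out replicates), while *Bcl2l13* ran from -0.012 to 0.11 over left-out replicates. At P15 *Bik* was at -0.0038 with DESeq2's size factors, -0.011 with DESeq2's Wald test and -0.0075 with crossed pairs, and ran from -0.23 to 0.23 over left-out replicates, and *Bcl2l2* was at 0.046 with library size alone and ran from -0.14 to 0.058.

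Libraries share replicate numbers, but nothing states that a number marks a pairing, and deviations of same-numbered libraries correlated at -0.12 to 0.091. With a replicate block, 5 members were higher and 3 lower at P5, 3 and 4 at P15 (*Bcl2* lost its call, 0.64, adjusted p = 0.0156), and 2 and 2 between the passages in naïve cells, where *Bcl2l1* (0.23, adjusted p = 0.00283) and *Bmf* (-0.36, adjusted p = 0.00228) passed. *Mcl1* lost the call on its change of the state effect (-0.21, adjusted p = 0.0151). Crossed pairs as a block, added after seeing the data, gave 5 higher and 3 lower at P5 and 4 and 4 at P15.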
